A study of Drosophila melanogaster with 7 samples.

Results

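The genes described here encode proteins of the mitochondrial ribosome in Drosophila melanogaster. They were chosen by name alone, as every gene whose symbol begins with mRpL or mRpS followed by a number, which gave 73 of the 17208 genes in the deposited table. Of these, 47 carry large subunit names (mRpL) and 26 carry small subunit names (mRpS). All 73 passed the filter on low counts, with between 72 and 3365 counts per gene and library.

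Mitochondria keep a small genome of their own, and the proteins it encodes, which are core subunits of the respiratory chain and of ATP synthase, are made by a dedicated ribosome inside the organelle. The ribosomal RNAs of that ribosome come from the mitochondrial genome, whereas all of its proteins are encoded in the nucleus, made in the cytosol and imported. Many of these proteins have a counterpart in the bacterial ribosome and keep its number, while others were added during the evolution of mitochondria. In flies, mutation of such genes slows larval growth, and mRpL12 is known as a gene needed for growth driven by Cyclin D and Cdk4.

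RNA was sequenced from imaginal wing discs of third-instar larvae, the larval epithelia that form the adult wing and notum, in 3 wild-type libraries (WT, with column names that begin with the strain name w1118 and a further tag, csvd111, which ds38k columns lack and whose meaning is not given) and 4 libraries of the ds38k genotype. ds38k is a mutation of dachsous (ds), which encodes the large cadherin that binds Fat in the Hippo growth and planar polarity pathways. No allele shared by both groups and no treatment other than genotype is given, and neither the number of discs or animals per library nor separate cultures are stated, so p-values cover no more than the spread among these libraries, part or all of which may be technical. Totals ran from 21438650 to 31718949 counts in WT and from 25192573 to 31142008 in ds38k. Transcripts of ds were at 1557 ± 140 CPM (n = 3, SD; CPM is the count scaled to a common library size) in WT and 201 ± 29.2 CPM (n = 4, SD) in ds38k. The ds transcript is long (12280.5 bases). Its log2 fold change was -2.95, or -1.19 with the correction for transcript length described below (adjusted p = 9.3e-05 by edgeR). In the longest of 20 length classes of protein-coding genes the median log2 fold change was -1.82 without the correction. All 6 wing disc markers examined (nub, vg, sd, ap, wg and hth) were detected, with summed levels of 2120 to 3415 CPM in WT and 1671 to 2297 CPM in ds38k. In whole discs, fewer cells of a type and less RNA per cell cannot be told apart.

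Transcripts of nearly all mitochondrial ribosomal protein genes took a larger part of the libraries in ds38k than in WT. Of the 73 genes 70, or 95.9%, were called higher in ds38k and 0 were called lower (edgeR quasi-likelihood test, adjusted p under 0.05 over all genes), in a comparison in which 34.2% of all 9294 genes tested were called higher and 30.8% lower. DESeq2 also called 70 higher and 0 lower. The same 95.9% had groups that did not overlap, with every ds38k library above every WT library, against 34.4% of all genes tested, and 0 had every ds38k library below, against 32.0%. The median log2 fold change of the 73 genes was 1.12, with quartiles at 0.73 and 1.30 and a range of -0.12 to 2.40, beside a median of 0.07 over all genes tested. A rise of at least 2-fold was fitted for 42 of them. These genes have short transcripts, and among 2095 tested protein-coding genes of a like transcript length (529.8 to 1265.5 bases, the 10th to 90th percentile of the mitochondrial ribosomal protein genes) 66.3% were called higher and 6.44% lower, with a median of 0.88, and 66.6% had separate groups with ds38k above and 6.97% with ds38k below. The high share of calls is therefore to be read against 66.3% rather than 34.2%. For the 42 genes with at least a 2-fold rise no matching share of other genes is given. In length classes 1, 2 and 3 of 20, the shortest protein-coding genes, the median log2 fold change was 1.15, 1.05 and 0.87. The first of these medians and the next are themselves above a 2-fold rise.

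**Figure D1:**
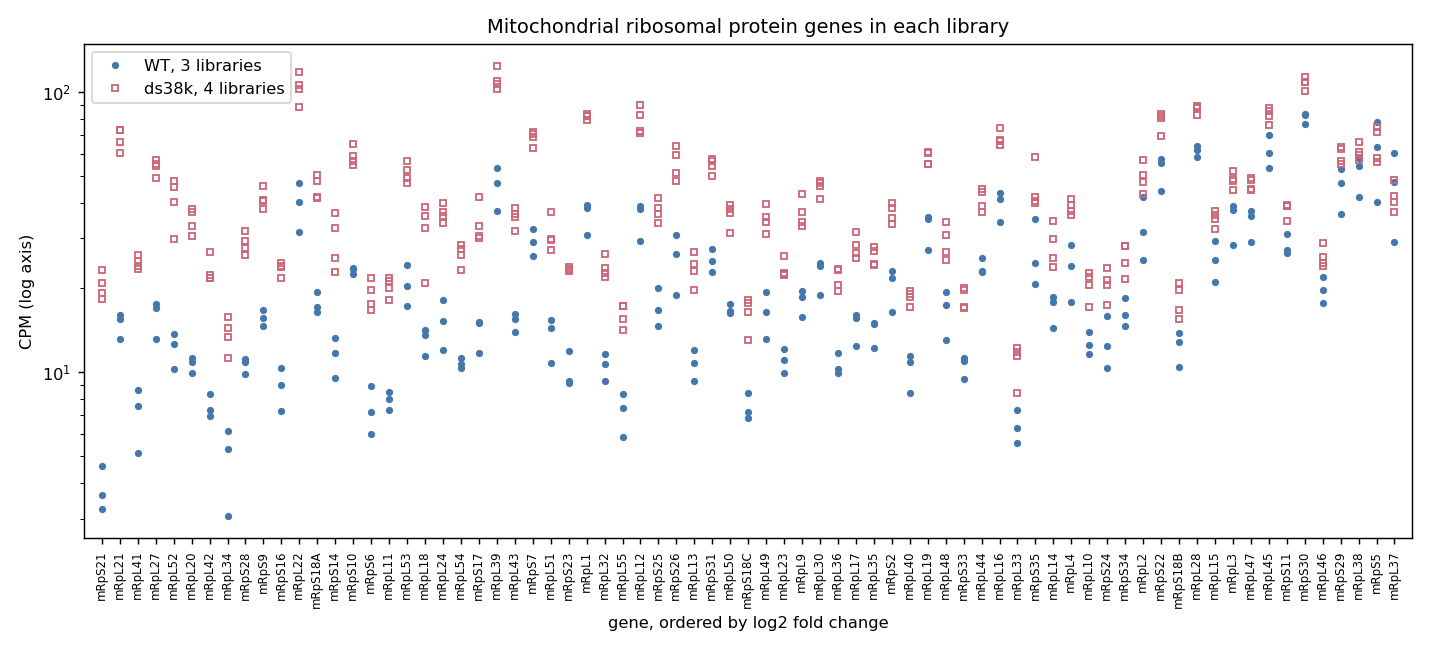
Expression of the 73 mitochondrial ribosomal protein genes in each library, in CPM on a log axis, with genes ordered by log2 fold change; filled circles are the 3 WT libraries and open squares the 4 ds38k libraries. The groups are separate for 70 genes, and overlap for mRpL38, mRpS5 and mRpL37 at the right.

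The largest rise was that of mRpS21 (FBgn0044511), the counterpart of a bacterial protein of the small subunit platform. It lies on the minus strand of chromosome arm 3R at 13381276 to 13381809 (dm6 coordinates). Its level was 3.24, 3.65 and 4.6 CPM in the 3 WT libraries and 18.1, 23.0, 19.1 and 20.7 CPM in the 4 ds38k libraries. The lowest ds38k library was thus well above the highest WT library, and the fitted rise was 5.28-fold, or 2.40 ± 0.18 on the log2 scale (SE; adjusted p = 3.1e-05 by edgeR). Of its exon bases 48.0% are shared with CG8870 on the opposite strand, a gene whose own level was 0.0379 ± 0.0434 CPM in WT (n = 3, SD) and 0.103 ± 0.112 CPM in ds38k (n = 4, SD).

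The second in order was mRpL21 (FBgn0036853; 3L, 19253290 to 19255061, minus strand), a large subunit protein with a bacterial counterpart. WT libraries held 15.4, 16.0 and 13.1 CPM, and ds38k libraries 72.8, 72.9, 66.1 and 60.4 CPM. The groups were far apart relative to the spread within either, and the log2 fold change was 2.20 ± 0.12 (SE; adjusted p = 7.0e-06 by edgeR). With a transcript of 866 bases it is longer than the other genes with the largest rises.

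Next came mRpL41, mRpL27 and mRpL52, all of the large subunit. mRpL41, a protein without a bacterial counterpart, was at 7.59, 8.62 and 5.12 CPM in WT and at 23.9, 26.1, 24.9 and 23.3 CPM in ds38k. Its groups were separate, with a log2 fold change of 1.79 ± 0.19 (SE; adjusted p = 0.00016 by edgeR). mRpL27, whose bacterial counterpart reaches into the peptidyl transferase centre, was at 17.5, 16.9 and 13.1 CPM in WT and at 54.1, 57.1, 55.4 and 49.4 CPM in ds38k. Its ds38k values lay close together, and its log2 fold change was 1.77 ± 0.13 (SE; adjusted p = 2.4e-05 by edgeR). mRpL52 was at 12.6, 13.6 and 10.2 CPM in WT and at 45.7, 48.0, 40.4 and 29.8 CPM in ds38k, where replicate 4 was the lowest of its group but still above every WT library. Its log2 fold change was 1.75 ± 0.20 (SE; adjusted p = 0.00019 by edgeR).

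For 3 genes no difference was called and the groups overlapped. mRpL38, a large subunit protein of the central protuberance, was at 57.9, 54.2 and 42.0 CPM in WT and at 59.5, 60.7, 57.0 and 66.1 CPM in ds38k, with a log2 fold change of 0.24 ± 0.12 (SE; adjusted p = 0.12 by edgeR). mRpS5, whose bacterial counterpart lines the entry of the mRNA channel, was at 40.4, 63.3 and 77.8 CPM in WT and at 58.1, 56.2, 72.0 and 74.8 CPM in ds38k (0.11 ± 0.22, SE; adjusted p = 0.69 by edgeR). mRpL37 was at 29.1, 60.4 and 47.6 CPM in WT and at 37.3, 42.6, 40.2 and 48.5 CPM in ds38k (-0.12 ± 0.23, SE; adjusted p = 0.67 by edgeR). In both mRpS5 and mRpL37 WT replicate 1 was the lowest library of all, and the WT libraries spread over a coefficient of variation of 31.2% and 34.4%, against a median of 13.7% over the 73 genes in WT and 8.69% in ds38k. Without WT replicate 1 the log2 fold change of mRpS5 was -0.11, and without WT replicate 2 that of mRpL37 was 0.13.

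Transcript length moved with the difference between the genotypes in the whole data set, and it did so among these genes too. The 24 shortest, of 327 to 691 bases, had a median log2 fold change of 1.32, the middle 24 had 1.15, and the 24 longest, of 905 to 1953.5 bases, had 0.66. Across the 72 genes with an annotated length, which share the same 7 libraries, the Spearman correlation of log2 fold change with length was -0.52. When the length trend of each library was taken out before the fit, 29 of the 72 genes, or 40.3%, were called higher and 0 lower (edgeR), while 27.6% of all 9224 genes in that fit and 33.7% of the genes of a like length were called higher, and 19.1% and 11.6% lower. The share called was then close to that of other genes of a like length. The median log2 fold change fell to 0.36, beside 0.06 for all genes and 0.24 for those of a like length, and 57 of 72 values were above 0. Only 4 genes were then at least 2-fold higher, a count for which no share of other genes is given. The corrected values ran from -0.51 for mRpL37 to 1.71 for mRpS21. Among the 72 genes the corrected values still ran with length, with a Spearman correlation of -0.36. Their medians were 0.55 in the shortest 24, 0.40 in the middle 24 and 0.16 in the longest 24. The correction also takes out any true change that runs with length, and it cannot be told apart from one.

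**Figure D2:**
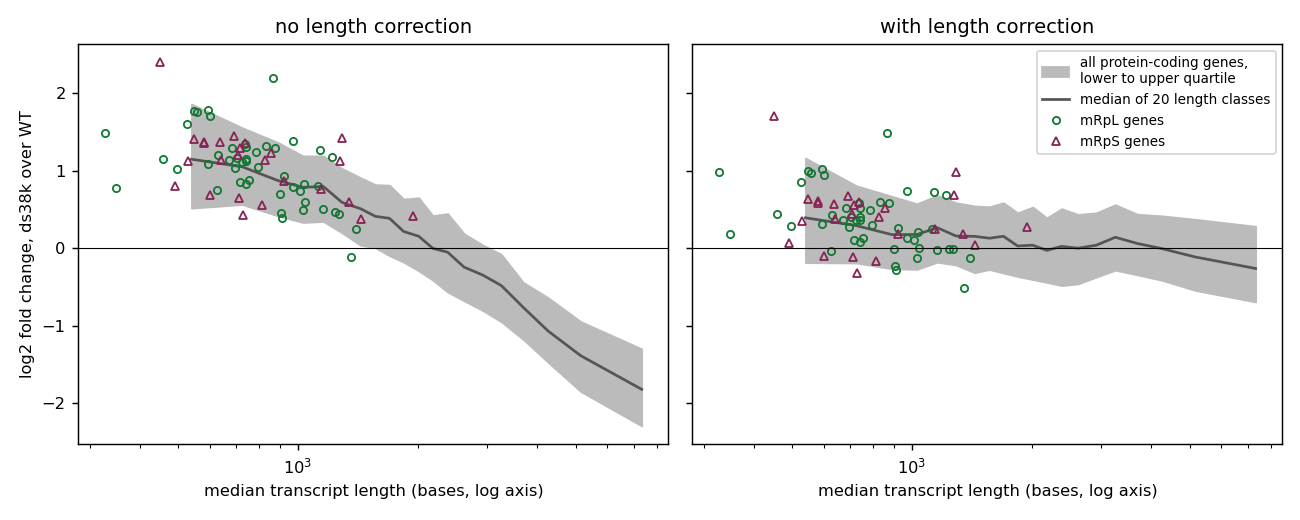
Log2 fold change of ds38k over WT against the median annotated transcript length in bases (log axis), without correction on the left and with correction on the right; circles are mRpL genes, triangles mRpS genes, the dark line is the median of 20 length classes of protein-coding genes and the grey band their lower to upper quartile. Most of the 72 genes lie within or just above the band of genes of their length, and mRpS21 (2.40 and 1.71) and mRpL21 (2.20 and 1.48) lie above it on both sides.

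The order of the genes hardly depended on the correction: across the 72 genes, the Spearman correlation of both sets of log2 fold changes was 0.95. Of the 29 genes called higher with the correction, 17 stayed called when each of the 7 libraries was left out in turn, a count without a matching share of other genes. These were mRpS21, mRpL21, mRpL41, mRpL27, mRpL52, mRpL20, mRpL42, mRpS28, mRpS9, mRpS18A, mRpS10, mRpL11, mRpL54, mRpL39, mRpS7, mRpL1 and mRpS31, of which those beyond the 5 largest rises, mRpL11 and mRpS18A were named after their values were seen. With correction mRpS21 was at 1.71 ± 0.18 (SE; adjusted p = 0.00054 by edgeR), mRpL21 at 1.48 ± 0.09 (7.0e-05), mRpL41 at 1.02 ± 0.20 (0.0058), mRpL27 at 1.0 ± 0.14 (0.0014) and mRpL52 at 0.97 ± 0.14 (0.0016). Without any correction 65 genes were called higher in the fit of all libraries and in every fit that left 1 out, again without a matching share of other genes. The other 5 lost the call without WT replicate 3: mRpS35 (adjusted p = 0.064), mRpL2 (0.070), mRpS18B (0.068), mRpL46 (0.073) and mRpS29 (0.089). Apart from mRpS18B they also lost it without WT replicate 2, and mRpS29 without ds38k replicate 1 or 2 as well.

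**Figure D3:**
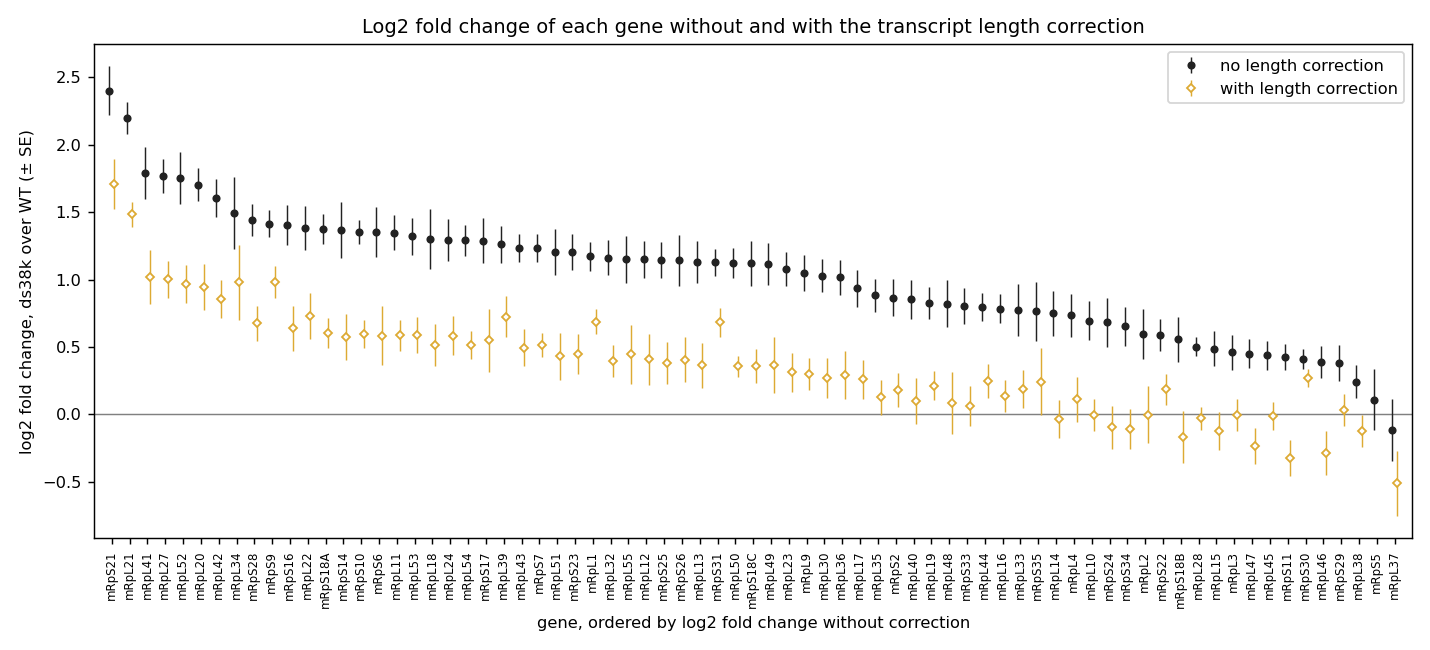
Log2 fold change of ds38k over WT for each of the 73 genes with its SE as a bar, ordered by the value without correction (filled circles); open diamonds give the value with the transcript length correction, which mRpS5 lacks. Values fall from 2.40 to -0.12 without the correction and from 1.71 to -0.51 with it.

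Within the large subunit 45 of 47 genes rose, with a median log2 fold change of 1.08, and 18 of 47 rose with the length correction, with a median of 0.31. The following groups by place in the ribosome, known from bacterial and mammalian structures, were formed after values were seen, and their counts are to be read against the 66.3% of genes of a like length called higher without and the 33.7% called higher with the correction. All 5 genes for proteins around the catalytic core (mRpL2, mRpL3, mRpL4, mRpL16 and mRpL27) rose, with a median of 0.73. With the length correction only mRpL27 rose. The median transcript length of the 5 was 1012 bases. Length classes of protein-coding genes with median lengths of 1029.75 and 1158 bases had median log2 fold changes of 0.79 and 0.80. Of the 4 genes for the mobile stalks, all rose, with a median of 1.16, and 2 of 4 did with the correction. mRpL12, whose bacterial counterpart forms the stalk that recruits translation factors, was at 39.2, 38.2 and 29.4 CPM in WT and at 72.3, 82.6, 71.3 and 89.8 CPM in ds38k. Its groups were well separated, and it rose by 1.15 ± 0.14 on the log2 scale (SE; adjusted p = 0.00029 by edgeR), with a corrected value of 0.41 ± 0.19 (adjusted p = 0.12). mRpL11, which lies at the base of that stalk, had a low level of 7.33, 8.45 and 7.99 CPM in WT and 20.01, 21.6, 21.1 and 18.1 CPM in ds38k. It rose by 1.35 ± 0.13 (SE; adjusted p = 8.8e-05 by edgeR) and by 0.59 ± 0.11 with the correction (adjusted p = 0.0054).

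All 8 genes for proteins around the exit of the polypeptide tunnel rose, with a median log2 fold change of 1.01, and 3 of 8 did with the length correction. One of these was mRpL22 at 47.3, 40.4 and 31.4 CPM in WT and 102, 118, 88.2 and 105 CPM in ds38k, a rise of 1.38 ± 0.16 (SE; adjusted p = 0.00026 by edgeR) that was 0.73 ± 0.17 with the correction (adjusted p = 0.011). mRpL45, which in mammals helps to anchor the ribosome at the inner membrane, was at 69.8, 60.3 and 53.3 CPM in WT and 85.4, 87.8, 76.1 and 82.0 CPM in ds38k. The highest WT library was a few CPM below the lowest ds38k library, and the log2 fold change was 0.44 ± 0.11 (SE; adjusted p = 0.0096 by edgeR) without and -0.02 ± 0.10 (adjusted p = 0.91) with the correction. mRpL28 likewise lost its call with the correction, although its groups were far apart: it held 64.0, 61.8 and 58.4 CPM in WT and 82.8, 89.2, 87.5 and 87.9 CPM in ds38k, which gave 0.50 ± 0.07 (SE; adjusted p = 0.00066 by edgeR) and, corrected, -0.03 ± 0.08 (adjusted p = 0.79). In the central protuberance, which touches the small subunit, 4 of 5 genes rose, with a median of 0.82, and 1 of 5 with the correction.

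Within the small subunit 25 of 26 genes rose, with a median log2 fold change of 1.13, and 11 of 25 rose with the length correction, with a median of 0.41. The head, which holds tRNAs in place during decoding, had 5 of 5 genes higher with a median of 1.35, and 4 of 5 with the correction: mRpS7, mRpS9, mRpS10 and mRpS14 but not mRpS29, the fly counterpart of human DAP3. Of the platform genes 4 of 4 rose (median 1.24), and mRpS21 alone did with the correction. Of the 3 body genes mRpS16 and mRpS17 rose. With the correction mRpS16 stayed called (0.64, adjusted p = 0.019 by edgeR) and mRpS17 did not (0.55, adjusted p = 0.089). The other, mRpS5, was the member of the whole set that is missing from the corrected fit, because its identifier is not in the annotation used here. mRpS30, which in mammals sits in the large subunit despite its name, had the longest transcript at 1953.5 bases. It was at 83.1, 82.9 and 76.7 CPM in WT and at 101, 108, 113 and 108 CPM in ds38k. These tight groups gave a modest rise of 0.41 ± 0.07 (SE; adjusted p = 0.0021 by edgeR), which was 0.27 ± 0.07 with the correction (adjusted p = 0.015).

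The 3 genes for relatives of bacterial S18 had rises of different size. In mammals the A form lies in the large subunit and the B and C forms in the small subunit. mRpS18A was at 16.4, 19.3 and 17.0 CPM in WT and 48.1, 50.4, 41.7 and 42.2 CPM in ds38k and rose by 1.37 ± 0.11 (SE; adjusted p = 4.5e-05 by edgeR), or 0.61 ± 0.11 with the correction (adjusted p = 0.0042). mRpS18C was at 6.86, 8.39 and 7.20 CPM in WT and 17.7, 18.1, 16.4 and 13.1 CPM in ds38k, a rise of 1.12 ± 0.17 (SE; adjusted p = 0.00086 by edgeR) with a corrected value of 0.36 ± 0.13 (adjusted p = 0.053). mRpS18B was at 12.7, 13.8 and 10.4 CPM in WT and 16.6, 20.8, 15.4 and 19.6 CPM in ds38k. Its groups were the closest of the 3, with a rise of 0.56 ± 0.17 (SE; adjusted p = 0.020 by edgeR) and a corrected value of -0.17 ± 0.19 (adjusted p = 0.51). The difference between these genes was not tested.

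Genes numbered as counterparts of bacterial proteins (mRpL up to 36 and mRpS up to 21) and genes with higher numbers had similar counts: 41 of 42 rose with a median of 1.13, and 29 of 31 with a median of 1.11. With the length correction the counts were 17 of 41 and 12 of 31. By chromosome arm, genes called higher with the correction numbered 4 of 12 on 2L, 10 of 12 on 2R, 5 of 16 on 3L, 7 of 21 on 3R and 3 of 11 on X. Among all tested protein-coding genes of a like length the same call was made for 36.2% on 2L, 33.4% on 2R, 28.6% on 3L, 36.2% on 3R and 34.5% on X. The count on 2R was not tested, and arms were compared after values were seen.

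Per kilobase of annotated transcript, levels spanned less than an order of magnitude within a genotype. They ran from 8.54 to 53.2 CPM per kb in WT, with a median of 21.7, and from 22.3 to 107 CPM per kb in ds38k, with a median of 43.4. In WT the highest were mRpL28 (53.2 ± 2.44 CPM per kb; n = 3, SD), mRpL12 (48.3 ± 7.29), mRpL45 (48.2 ± 6.5), mRpS30 (41.4 ± 1.87) and mRpL22 (40.8 ± 8.18). Neighbours in this order differed by no more than about the larger of their SDs. The lowest were mRpS21 (8.54 ± 1.56), mRpL11 (10.8 ± 0.763) and mRpL41 (12.0 ± 3.03), where the last pair lay within their spread. In ds38k mRpL12 (107 ± 12.0; n = 4, SD) and mRpL22 (106 ± 12.5) led, followed by mRpL27 (98.7 ± 6.06), and mRpS18B was lowest (22.3 ± 3.10). Over the 72 genes the Spearman correlation of the levels in both genotypes was 0.65, and that between log2 fold change and the WT level was -0.48; the latter shares the WT values on both sides. mRpS21 moved from the lowest WT level to 45.2 ± 4.77 CPM per kb, above the ds38k median.

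**Figure D4:**
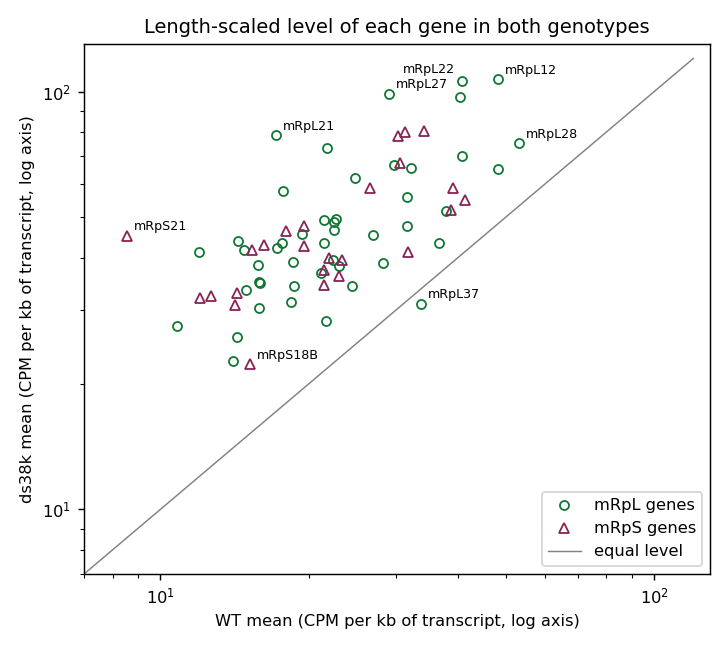
Mean level of each of 72 genes in ds38k against WT, in CPM per kilobase of transcript on log axes; circles are mRpL genes, triangles mRpS genes and the line marks equal levels. All but mRpL37 lie above the line, and mRpS21 and mRpL21 lie farthest from it.

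Summed over the 73 genes, transcripts of mitochondrial ribosomal proteins made up 0.187%, 0.189% and 0.155% of all counts in the WT libraries and 0.294%, 0.302%, 0.275% and 0.267% in the ds38k libraries. The groups did not overlap, at 0.177 ± 0.0189% (n = 3, SD) and 0.284 ± 0.0161% (n = 4, SD). Both subunits shared in this: large subunit genes went from 0.112 ± 0.0140% to 0.184 ± 0.0113% and small subunit genes from 0.0648 ± 0.00517% to 0.10 ± 0.00483%. The ratio of large to small subunit counts was 1.73 ± 0.104 in WT and 1.84 ± 0.0265 in ds38k, and its groups overlapped. The 73 genes, of any length, were also set against other protein-coding genes with transcripts of at most 1000 bases, without the cytosolic ribosomal protein genes. Of the counts of both together, the 73 took 4.23 ± 0.0648% in ds38k (n = 4, SD) and 5.03 ± 0.355% in WT (n = 3, SD). Since the 73 include longer transcripts, which rose less, this lower share does not compare genes of a like length.

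The cytosolic ribosomal protein genes, which build the ribosome of the cytosol, went up by more. Their counts were 15.0 ± 0.484 times those of the mitochondrial set in WT (n = 3, SD) and 39.5 ± 1.68 times in ds38k (n = 4, SD). The median log2 fold change of the 88 tested cytosolic genes was 2.40, or 1.76 with the length correction, against 1.12 and 0.36 for the mitochondrial set. Nuclear ribosomal RNA took 0.83 ± 0.166% of counts in WT and 12.7 ± 1.5% in ds38k. When library sizes and scaling factors were computed without rRNA and cytosolic ribosomal protein genes, 70 mitochondrial ribosomal protein genes were still higher and the median was 1.12.

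**Figure D5:**
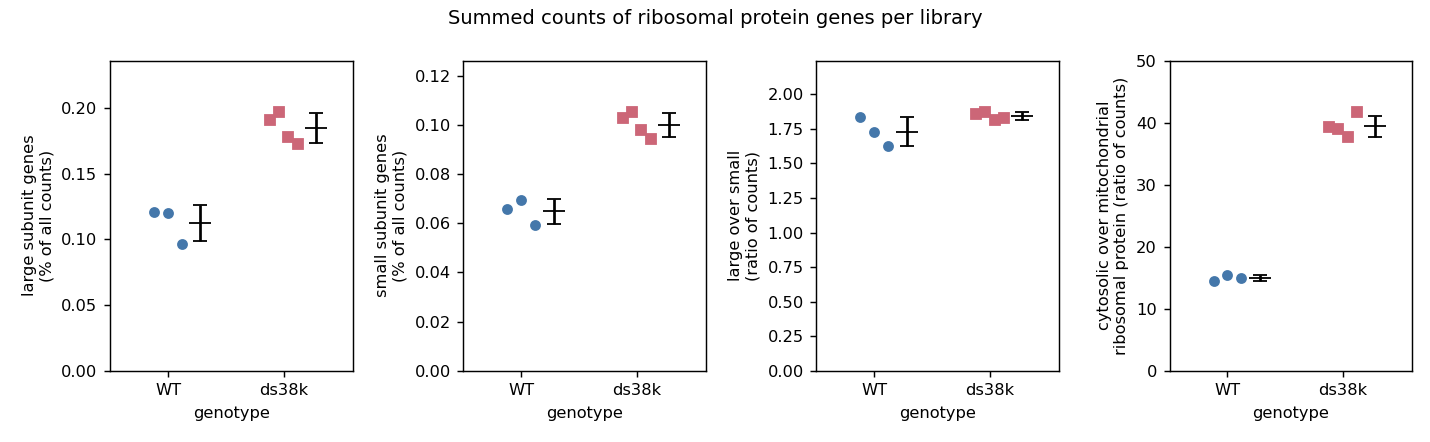
Summed counts per library: large subunit genes and small subunit genes as a percentage of all counts, the ratio of large to small subunit counts, and the ratio of cytosolic to mitochondrial ribosomal protein counts. Circles are the 3 WT and squares the 4 ds38k libraries, with the mean and SD beside them; the groups are separate in all panels but the large to small ratio (1.73 ± 0.104 and 1.84 ± 0.0265).

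Another 3 mitochondrial ribosomal protein genes carry other names and so fall outside the 73. tko, the classic bang-sensitive gene that encodes the counterpart of bacterial S12, rose from 35.7 ± 2.06 CPM (n = 3, SD) to 62.6 ± 3.49 CPM (n = 4, SD), or 0.81 ± 0.08 on the log2 scale (SE; adjusted p = 0.00013 by edgeR). CRIF rose from 23.3 ± 0.740 to 40.4 ± 3.70 CPM (0.80 ± 0.10; adjusted p = 0.00031). bonsai, the counterpart of bacterial S15, was at 13.9, 27.2 and 23.2 CPM in WT and 24.0, 23.3, 24.6 and 35.8 CPM in ds38k, where WT replicate 1 was again the lowest, and was not called (0.33 ± 0.26; adjusted p = 0.29). With the length correction none of the 3 was called by edgeR, at 0.26 (adjusted p = 0.074), 0.07 (0.60) and -0.29 (0.45).

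Other genes of mitochondrial gene expression are given here beside the shares of all genes tested, of which 34.2% were higher and 30.8% lower, or 27.6% and 19.1% with the correction. Of 15 translation factors and related genes 6 rose and 4 fell, near the shares of all genes. mEFTs, the elongation factor that recharges EF-Tu, rose from 43.9 ± 2.55 to 129 ± 7.22 CPM (1.56 ± 0.08, SE; adjusted p = 7.1e-06 by edgeR) and was at 1.25 ± 0.07 with the length correction (adjusted p = 5.7e-05). The GTPase gene waw fell by 1.23 ± 0.14 and Letm1, whose product is an inner membrane protein, fell by 0.81 ± 0.09, but with the correction they were at 0.11 (adjusted p = 0.49) and 0.05 (0.72), and the list then had 4 higher and 1 lower. Both have long transcripts, of 5450 and 3753 bases. Of 19 genes for mitochondrial aminoacyl-tRNA synthetases and amidotransferase subunits, which charge the tRNAs, 5 rose and 5 fell, and with the correction 4 rose and 0 fell. Apart from the 0, these counts were near or below the shares of all genes. PheRS-m rose by 0.87 ± 0.12 and GatA by 0.86 ± 0.14, and AlaRS-m fell by 0.86 ± 0.13, a value that was -0.24 with the correction (edgeR adjusted p = 0.23).

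Of 10 genes for mitochondrial DNA replication and transcription 6 rose and 3 fell, and with the correction 3 and 1 did. TFAM, which packages the mitochondrial genome, rose from 52.9 ± 4.53 to 110 ± 7.39 CPM (1.06 ± 0.09, SE; adjusted p = 6.3e-05 by edgeR; corrected 0.52 ± 0.09, adjusted p = 0.0041). mtSSB, the single-strand binding protein, rose by 1.11 ± 0.14 (corrected 0.34, adjusted p = 0.11). mtRNApol, the mitochondrial RNA polymerase, fell by 1.13 ± 0.12, and its corrected value was 0.02 (adjusted p = 0.89). Only 6 genes of the list for ribosome assembly and RNA processing were tested, since 14 of its 21 entries were not found under the names listed. Among them scu rose by 1.29 ± 0.17, CG11447 by 1.09 ± 0.17 and Mtpalpha by 0.28 ± 0.09, and all 3 rose with the correction too. Mtpalpha acts in fatty acid oxidation and does not belong in that list, although it is counted there and in the totals over these lists. Of 16 tested import and chaperone genes 12 rose and 1 fell, or 6 and 2 with the correction. Tim9a, a small chaperone of the intermembrane space, rose from 10.8 ± 1.05 to 33.4 ± 3.30 CPM (1.63 ± 0.13, SE; adjusted p = 3.6e-05 by edgeR), and was at 0.90 ± 0.10 with the correction (adjusted p = 0.00060). Roe1, a co-chaperone of the import motor, rose by 1.09 ± 0.09, and mge, which encodes a receptor subunit of the outer membrane translocase, by 1.11 ± 0.09. The list's median transcript length was 959.5 bases. Its tested genes ran from Tim9a at 488.5 bases to Hsc70-5 at 2856.5 bases, and several lie outside 529.8 to 1265.5 bases. Of the genes within that range 66.3% were called higher, or 33.7% with the correction. These shares therefore do not match the list in length.

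Counts of the RNA partners of these proteins varied widely between libraries. The large mitochondrial rRNA, mt:lrRNA, was at 2351, 1482 and 4582 CPM in WT and at 3846, 4229, 6165 and 10551 CPM in ds38k. The groups overlapped, and the log2 fold change of 1.14 ± 0.49 was not called (SE; adjusted p = 0.072 by edgeR). The small mitochondrial rRNA, mt:srRNA, was far lower, at 0.512, 0.285 and 1.42 CPM in WT and 0.561, 0.462, 0.945 and 2.96 CPM in ds38k. It was not called either (0.74 ± 0.83, SE; adjusted p = 0.46 by edgeR). The cause of the gap between both rRNAs was not tested, and neither level is read as an amount of ribosomal RNA. Of 14 tested genes on the mitochondrial genome 1 was called higher and 0 lower: mt:ND3, at 0.640, 1.17 and 3.11 CPM in WT and 4.19, 6.56, 6.74 and 36.9 CPM in ds38k (3.04 ± 0.98, SE; adjusted p = 0.027 by edgeR). With the length correction edgeR called 0 of them, and mt:ND3 was at 2.66 ± 1.02 (adjusted p = 0.066). The libraries with the highest mt:lrRNA level in their genotype, WT replicate 3 and ds38k replicate 4, were those with the lowest share of counts from the 73 nuclear genes. On the scaled levels, ds38k replicate 3 had the lowest median log2 ratio to the WT mean (0.99), below replicate 4 (1.04). A relation was not tested.

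Markers of other tissues differed between the libraries in both directions. The summed level of 3 fat body markers (Lsp1alpha, Lsp2 and Fbp1) was 6.47 to 14.8 CPM in WT and 611, 2165, 620 and 47.4 CPM in ds38k replicates 1 to 4, and that of 2 salivary gland markers was 0 to 6.78 CPM in WT and 597, 52.7, 9.86 and 0.110 CPM in ds38k. Of the fat body markers 3 of 3 were called higher by edgeR and of the salivary gland markers 0 of 2. Muscle markers (Mhc, Act88F and Act57B) summed to 3.11 to 11.9 CPM in WT and 14.8 to 168 CPM in ds38k. Tracheal markers (btl and trh) had lower sums, of 57.0 to 76.3 CPM in WT and 27.2 to 34.2 CPM in ds38k, as had haemocyte markers (Hml, NimC1 and Pxn), of 30.5 to 72.7 and 8.12 to 28.1 CPM, and of the wing disc markers nub, vg, sd and ap were called lower by edgeR. With the length correction nub and ap stayed lower, while vg (adjusted p = 0.26 by edgeR) and sd (0.51) were not called and hth was called higher (0.0087). Of the tracheal and haemocyte markers, trh and Hml were called lower without the correction and none with it. All 3 fat body markers stayed higher. In ds38k replicates 1, 2, 3 and 4 the number of the 73 genes above the highest WT library was 71, 71, 70 and 71. No share of other genes is given per library. Of the genes of a like length, 66.6% had every ds38k library above every WT library. The median log2 ratio of the 73 genes to the WT mean was 1.10, 1.18, 0.99 and 1.04 in the same order. Replicate 4, with the ratio of 1.04, had the lowest fat body and salivary gland sums of ds38k. Any relation between these tissues and the levels of the 73 genes was not tested.

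For 8 genes at least 20% of the exon bases are shared with another gene, and the median log2 fold change of these 8 was 1.23, against 1.11 for the other 65. Strandedness is not given in the sources used, so reads of genes that overlap on opposite strands cannot be told apart. This touches 6 of the 8: mRpS24 with 55.3% of its exon bases, mRpS21 with 48.0%, mRpS14 with 32.0%, mRpS9 with 25.1%, mRpL17 with 23.6% and mRpL48 with 20.8%. mRpL13 (35.2%) and mRpL53 (100%) overlap a gene on the same strand, so that their counts depend on how shared reads were divided. All 8 values are uncertain to that extent.

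mRpL53 has all of its exon bases within those of CG33155. CG33155 was at 7.24 ± 0.655 CPM in WT (n = 3, SD) and 5.43 ± 0.490 CPM in ds38k (n = 4, SD), whereas mRpL53 went from 20.6 ± 3.48 to 51.4 ± 4.26 CPM.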

How the data were processed

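The deposited table holds expected counts per gene and library from whole discs, 1 column for each of 7 samples, and 0 value columns were left over. The submitters' processing notes name FastQC 0.10, Trimmomatic 0.33, Salmon 1.80 and edgeR, and the build dm6. Salmon shares out reads that match several transcripts, and RNA selection, strandedness and batch are not stated. Expected counts were rounded and fitted over all genes in R 4.3.3 with edgeR 4.0.16 (filterByExpr with a minimum count of 10, TMM factors, quasi-likelihood F-test of genotype, Benjamini-Hochberg adjustment, threshold 0.05). SEs are the log2 fold change over the square root of F. CPM values are TMM-scaled, and shares use total counts. In the length correction, the log2 CPM deviations of each library (prior count 2) were fitted on log2 median annotated transcript length (BDGP6.54, 72 of 73 genes matched) by a natural spline (5 degrees of freedom), taken out as an offset. Alternatives were other scalings and filters, DESeq2 1.42.0, a replicate block, and each library left out; leaving libraries out of the corrected fit was added after seeing the data. The edgeR script was tested on simulated data. The genes, lists and comparisons were chosen with earlier results of these data known. The text names the 5 largest changes in each direction among called genes with separate groups, the 5 highest and 3 lowest WT levels per kilobase, genes not called, lettered paralogs, and up to 3 genes with the smallest p per list. Replicate numbers were not used to pair the libraries in the main fit.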

Additional observations from a re-analysis of the deposited data

Results flagged for a closer look

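In 4 of 73 genes 1 ds38k library lay far from the other 3 relative to the range of its group, where chance alone flags about 1 gene in 20. mRpL42 was at 26.8 CPM in ds38k replicate 2, above 21.6 to 22.2 CPM in the others. mRpL23 was at 26.0 CPM in ds38k replicate 3, above 22.1 to 22.6 CPM. mRpS35 was at 58.5 CPM in ds38k replicate 4, above 40.0 to 41.9 CPM. mRpS11 was at 34.5 CPM in ds38k replicate 3, below 39.2 to 39.4 CPM. The 4 values lay in 3 different libraries.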

How the results depend on the processing

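Between 69 and 71 mitochondrial ribosomal protein genes were called higher and 0 lower with other scalings, without or with a stricter filter and with DESeq2, and 65 to 70 with each library left out. The replicate numbers were not taken to pair the libraries. Correlations of same-numbered deviations were 0.14, 0.0031 and 0.098, against -0.11 to 0.044 for unlike numbers, so weak pairing cannot be dismissed. With the replicate block 70 were called higher, beside 3376 of all 9294 genes higher and 3194 lower. The median of 1.12 was 1.39 with upper-quartile factors, where the median of all genes was 0.33, and 1.0 to 1.15 with a library left out. The length correction gave 29 called higher and a median of 0.36, with 2547 of all 9224 genes higher and 1760 lower. In the other mitochondrial lists 20 were then higher and 4 lower. With the replicate block and the length correction there were 31 higher and 4 lower (mRpL47, mRpS11, mRpL46 and mRpL37), with a median of 0.27. That fit called 2825 of all 9224 genes higher and 2293 lower, and 20 and 6 in the other lists. With the length correction and each library left out, 17 to 40 were higher, 0 to 3 lower (mRpL37 without WT replicate 1, and mRpL47, mRpS11 and mRpL46 without ds38k replicate 4) and the median was 0.23 to 0.52. Leaving out libraries without and with the correction, over all genes 1728 to 3341 were higher and 1267 to 3190 lower, and in the other lists 10 to 34 were higher and 3 to 15 lower. Those lists had 34 and 13 with all libraries and no correction, and 8 lower with upper-quartile factors.

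Some log2 fold changes changed sign. With the length correction mRpL28 was at -0.030, mRpL45 at -0.015, mRpL38 at -0.12 and mRpS18B at -0.17, and with the replicate block as well at -0.087, -0.045, -0.19 and -0.30. With each library left out, without and with the length correction, they ran from -0.091 to 0.54, -0.10 to 0.55, -0.24 to 0.34 and -0.30 to 0.65. mRpL37 was at 0.14 with upper-quartile factors and ran from -0.75 to 0.13 in the same fits, and mRpS5, without the correction alone, from -0.11 to 0.32. The cause was not tested. A promoter motif search was not run, since no promoter sequence was used here. Depth was not a limit for detection, as every gene had at least 72 counts in each library, but the small group sizes limit precision.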
